A study of Mus musculus with 16 samples.

Results

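The change that a Nfib vector and a Mycl1 vector together produced in one mouse small cell lung cancer line was set against the change they produced in another. Expression was measured on Affymetrix arrays of total RNA, and the members are the 8 arrays, of 16 in all, of cells with both vectors and of control cells. For every gene the log2 change of 3583T3 cells (Nfib+Mycl1 minus control) and that of 3151T4 cells were taken, and the second was subtracted from the first. A positive difference means that a gene went further up, or less far down, in 3583T3. Each group had 2 arrays: 3583T3 Nfib+Mycl1 and 3583T3 control (replicates 1 and 2), and 3151T4 Nfib+Mycl1 and 3151T4 control (replicates 3 and 4). The Nfib+Mycl1 cells stably carried a retroviral MSCV vector for FLAG-tagged mouse Nfib (MSCV-Nfib-PGK-Neo, selected with G418) and an MSCV vector for L-myc (MSCV-L-myc-PGK-Puro, selected with puromycin). The control cells were untransfected, so vector, drug selection and transgene cannot be told apart. The remaining 8 arrays (Nfib alone and Mycl1 alone, 2 per line) entered the fit and are quoted below only for members. Both lines were grown from dissociated tumours plated in serum medium. The labels give 1 line per tumour and no alleles of the mice, so each line is a single case, and differences between them are those of these cultures. The labels do not state that replicates came from separate cultures. The p-values therefore cover only how far these arrays differ within a group, and that spread may be technical.

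Nfib encodes nuclear factor I/B, a DNA-binding regulator of transcription that acts in lung and brain development and is amplified in some small cell lung cancers. Mycl, the gene once called Mycl1, encodes L-Myc, which pairs with Max, binds E-box DNA and drives genes of growth and ribosome production. Small cell lung cancer is a neuroendocrine tumour that can hold neuroendocrine and non-neuroendocrine cells side by side, the second kind with mesenchymal traits.

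The transgene signal went against the label on 1 of the 8 arrays. A probe set of Mycl read 11.05 and 2.67 in 3583T3 Nfib+Mycl1 cells, against 2.47 and 2.36 in 3583T3 control cells. It read 10.34 and 9.99 in 3151T4 Nfib+Mycl1 cells, against 2.24 and 2.29 in 3151T4 control cells. Thus the library labelled 3583T3 Nfib+Mycl1 replicate 2 sat at the control level, while the library labelled 3583T3 Nfib replicate 2 sat at 10.22, the level of arrays with the Mycl1 vector. Counts are therefore given with and without these 2 arrays. The Mycl difference between lines was -3.46 ± 3.18 (SE; limma, adjusted p = 0.697), and without the 2 arrays it was 0.73 (adjusted p = 0.556). Of the other Mycl probe sets, 1 was near the floor and 1 read 5.60 and 7.30 in 3583T3 Nfib+Mycl1 cells, against 6.81 and 6.49 in 3583T3 control cells, and 3.79 and 3.92 against 6.64 and 5.93 in 3151T4 (difference 2.23 ± 0.90, adjusted p = 0.255). A probe set of Mycn rose by 10.78 in 3583T3 and by 10.69 in 3151T4, and was high on every array with a vector. None of the 4 Nfib probe sets passed for the difference (0.09 to 0.27, adjusted p of 0.730 or above), their changes lay between -0.50 and 0.21, and whether they read the transgene was not tested. The Myc difference was 0.27 (adjusted p = 0.908), and those of the other Mycn probe sets were -0.45 and 0.01.

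The replicates of 3583T3 Nfib+Mycl1 were also the least alike of the 4 groups, with 519 genes over 1 log2 unit apart, against 75 in 3583T3 control, 104 in 3151T4 Nfib+Mycl1 and 43 in 3151T4 control. Arrays had between 63.8% and 64.9% of probe sets above log2 4. Defining neuroendocrine markers (Chga, Chgb, Syp, Syt1, Neurod1, Insm1) averaged under log2 4 in all 4 groups, as did Epcam and Nkx2-1. Ncam1 (11.53 to 12.35 across arrays), Uchl1 (8.31 to 11.34) and Foxa2 (7.29 to 9.13) were present. Cdh1, which encodes E-cadherin, was present too and differed between the lines. It averaged 11.67 in 3583T3 Nfib+Mycl1 cells and 12.46 in 3583T3 control cells, against 7.48 and 8.69 in 3151T4. Signal of macrophage and leukocyte genes was present in the control cells and mostly low in the Nfib+Mycl1 cells. In 3151T4 control cells, however, C1qa, C1qc, Mrc1 and Ptprc averaged under log2 4. The summed linear signal of 24 macrophage and leukocyte genes was 351 to 387 in 3583T3 Nfib+Mycl1 cells, against 15650 to 24910 in 3583T3 control cells. In 3151T4 it was 356 to 397 in Nfib+Mycl1 cells, against 7751 to 7803 in control cells. In such bulk samples fewer cells of a type and less RNA per cell cannot be told apart, and the part of this loss in the differences below was not tested.

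The combined vectors changed the lines in partly different ways. Of 8777 genes tested, 524 (5.97%) passed the test of the difference itself (limma, Benjamini-Hochberg adjusted p under 0.05), and 1500 had an unadjusted p under 0.05. Of the 524, 378 (4.31%) had a positive difference and 146 (1.66%) a negative one. The test passed 501 genes without 3583T3 Nfib+Mycl1 replicate 2, of which 410 were among the 524. Without both doubted arrays it passed 767 (5.71% of genes positive, 3.03% negative), of which 476 were among the 524. The count dropped to 321, 341 and 344 without 3151T4 Nfib+Mycl1 replicate 3, 3151T4 control replicate 4 and 3583T3 control replicate 2, each left out alone. At the threshold, Pcgf6 (-1.41, adjusted p = 0.049) and Ncstn (1.08, 0.0496) lay just inside, and Haus8 (-1.51, 0.0504) and Dysf (1.41, 0.0507) just outside.

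A difference can also arise at the signal floor, where a gene has no room to fall. Of the 524 genes, 263 had all 4 group means at log2 4 or above, 212 of them positive (2.42% of genes tested) and 51 negative (0.581%). A further 43 were under log2 4 in 1 line with and without vectors and rose in the other, 25 in 3583T3 and 18 in 3151T4. The remaining 218 were set aside because a group mean lay under log2 4. In 128 of them the larger change was a fall and the control of the other line already lay under log2 4. In 151, which overlap with the 128, a fall in either line ended under log2 4, and 31 were of neither kind. Being set aside does not show that the floor made a difference. Of the 263, 226 passed without the 2 doubted arrays and all 263 kept their sign. The number above the floor was 147, 161, 170, 136 and 158 when 3583T3 control replicate 1 or 2, 3151T4 control replicate 3, 3151T4 Nfib+Mycl1 replicate 3 or 3151T4 control replicate 4 was left out. A gene below that was set aside is named as such.

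**Figure D1:**
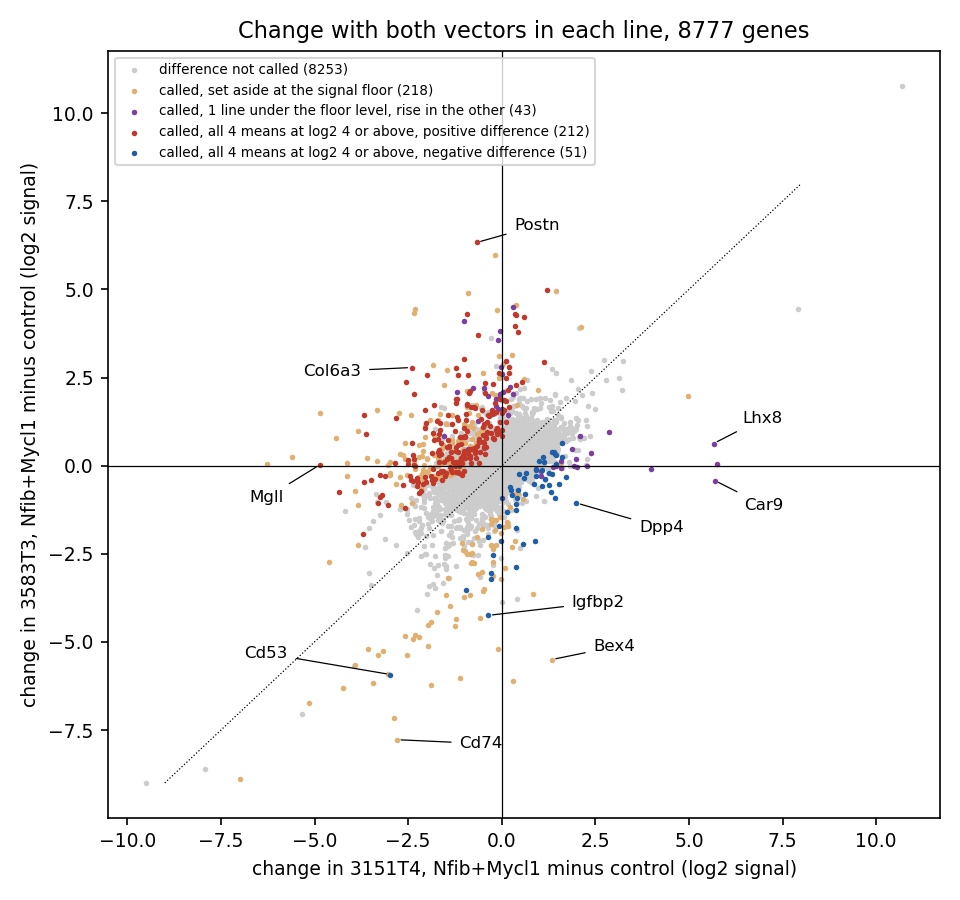
Change of each of 8777 genes with both vectors in 3583T3 (vertical axis) against that in 3151T4 (horizontal axis), both in log2 signal; each point is a gene, the dotted line marks equal change, and colours give the call for the difference and its relation to the signal floor. Most positive differences above the floor lie left of or near zero in 3151T4 and at or above zero in 3583T3, as Col6a3 does at 2.78 in 3583T3 and -2.41 in 3151T4.

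Each line's own change shows where the differences came from. In 3583T3, 626 genes rose (7.13%) and 573 fell (6.53%), and in 3151T4, 1285 rose (14.6%) and 1335 fell (15.2%). The 3583T3 total of 1199 became 1416 without Nfib+Mycl1 replicate 2, 1892 without the 2 doubted arrays, and 423, 472 and 594 without control replicate 1, Nfib+Mycl1 replicate 1 and control replicate 2. The 3151T4 total of 2620 became 1084, 1028 and 1716 without Nfib+Mycl1 replicate 3, control replicate 4 and Nfib+Mycl1 replicate 4. Leaving out single arrays thus moved the totals by as much as the totals of the lines differed. Across genes the changes of the lines had a Pearson correlation of 0.50, as a description of genes that share arrays. Of the 212 positive genes above the floor, 107 fell in 3151T4 alone, 64 rose in 3583T3 alone, 29 rose in 3583T3 and fell in 3151T4, 7 changed the same way in both and 5 passed in neither. Of the 51 negative genes, 26 rose in 3151T4 alone, 22 fell in 3583T3 alone, 2 changed the same way and 1, Dpp4, fell in 3583T3 and rose in 3151T4. So 30 genes moved in opposite directions, and 24 of the 30 still passed all 3 tests without the doubted arrays. They included the matrix and matrix-modifying genes Postn, Col6a3, Thbs2, Mmp23, Vcan, Loxl3, Plod2 and Col5a1, and the interferon-response genes Ifit3 and Irf9.

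The same differences can be read as a gap between the lines. Of the 212 positive genes, 122 were higher in 3583T3 than in 3151T4 among Nfib+Mycl1 cells, against 32 among control cells. The median size of the gap was 0.99 in Nfib+Mycl1 cells and 1.62 in control cells, and the gap was smaller with the vectors for 67.5% of these genes, for 78.4% of the 51 negative genes, and for 59.4% of all 7614 genes with 4 means at log2 4 or above. These gaps come from the arrays that made the calls and carry no test of their own.

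Among the 12 largest positive differences above the floor were secreted matrix proteins. Postn encodes periostin, a matricellular protein of fibroblasts and tumour stroma. It read 11.61 and 11.03 in 3583T3 Nfib+Mycl1 cells, against 5.14 and 4.84 in 3583T3 control cells, and 11.81 and 11.70 in 3151T4 Nfib+Mycl1 cells, against 12.33 and 12.50 in 3151T4 control cells. It rose 80.4-fold in 3583T3 and fell by 0.67 in 3151T4, a difference of 7.0 ± 0.29 (SE; adjusted p = 1.01e-08). Postn in 3583T3 cells with both vectors thus ended near the level that 3151T4 cells had with and without them. Col6a3, a chain of type VI collagen, read 9.45 and 8.90 against 6.70 and 6.08 in 3583T3, and 7.79 and 7.88 against 10.32 and 10.16 in 3151T4. Col6a3 rose by 2.78 in 3583T3 and fell by 2.41 in 3151T4, and the order of the lines turned over (difference 5.19 ± 0.40, adjusted p = 2.54e-06). Thbs2, the matricellular thrombospondin 2, read 9.98 and 9.65 against 6.56 and 8.35 in 3583T3, and 7.65 and 6.77 against 9.61 and 9.89 in 3151T4 (difference 4.91 ± 0.67, adjusted p = 0.00049). Mmp23, a metalloproteinase, rose by 2.58 in 3583T3 and fell by 1.99 in 3151T4 (difference 4.57 ± 0.60, adjusted p = 0.000364). Tmem45a, a transmembrane protein gene, read 9.40 and 8.92 against 4.62 and 5.07 in 3583T3, and 4.28 and 4.58 against 5.47 and 5.25 in 3151T4 (difference 5.25 ± 0.34, adjusted p = 4.13e-07). Plac8, a small cysteine-rich protein gene, rose by 2.04 in 3583T3 and fell by 2.36 in 3151T4.

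For Mgll, Cdh11, Actg2 and Epb41l3, also among these 12, the larger change was a fall in 3151T4. Mgll, which encodes the lipase that splits monoglycerides, read 5.42 and 7.18 against 6.32 and 6.21 in 3583T3, where the groups overlapped. In 3151T4 it read 3.64 and 4.44 in Nfib+Mycl1 cells, against 8.93 and 8.84 in control cells, 28.7-fold lower (difference 4.88 ± 0.67, adjusted p = 0.00049). The Mgll change in 3583T3 was 0.03, and -0.85 without the doubted arrays, where the difference was 3.99. Cdh11, a cadherin of mesenchymal cells, fell by 3.67 in 3151T4, while its 3583T3 change of 1.42 missed the threshold (adjusted p = 0.083). Without the doubted arrays Cdh11 rose by 2.22 in 3583T3 (adjusted p = 0.000434), so that its changes were opposite. Actg2, the gamma actin of smooth muscle, fell by 3.62 in 3151T4 and its 3583T3 change of 0.89 did not pass (adjusted p = 0.14), but was 1.30 and passed without the doubted arrays (adjusted p = 0.0257). Epb41l3, a membrane skeleton protein, fell by 2.83 in 3151T4, with a 3583T3 change of 1.34 (adjusted p = 0.198) that was 2.51 and passed without the doubted arrays (adjusted p = 0.00551). Its difference of 4.17 ± 0.96 (adjusted p = 0.0176) missed the threshold without any one of 5 arrays (adjusted p of 0.0540 to 0.0873 without 3583T3 control replicates 1 and 2, 3151T4 control replicates 3 and 4, and 3151T4 Nfib+Mycl1 replicate 4). Usp18 and Gbp7, both interferon-induced, rose by 3.71 and 3.02 in 3583T3, with 3151T4 changes of -0.64 and -1.01 that did not pass (adjusted p = 0.40 and 0.12). Another Gbp7 probe set had a difference of 0.84 that did not pass (limma over all probe sets, adjusted p = 0.517).

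**Figure D2:**
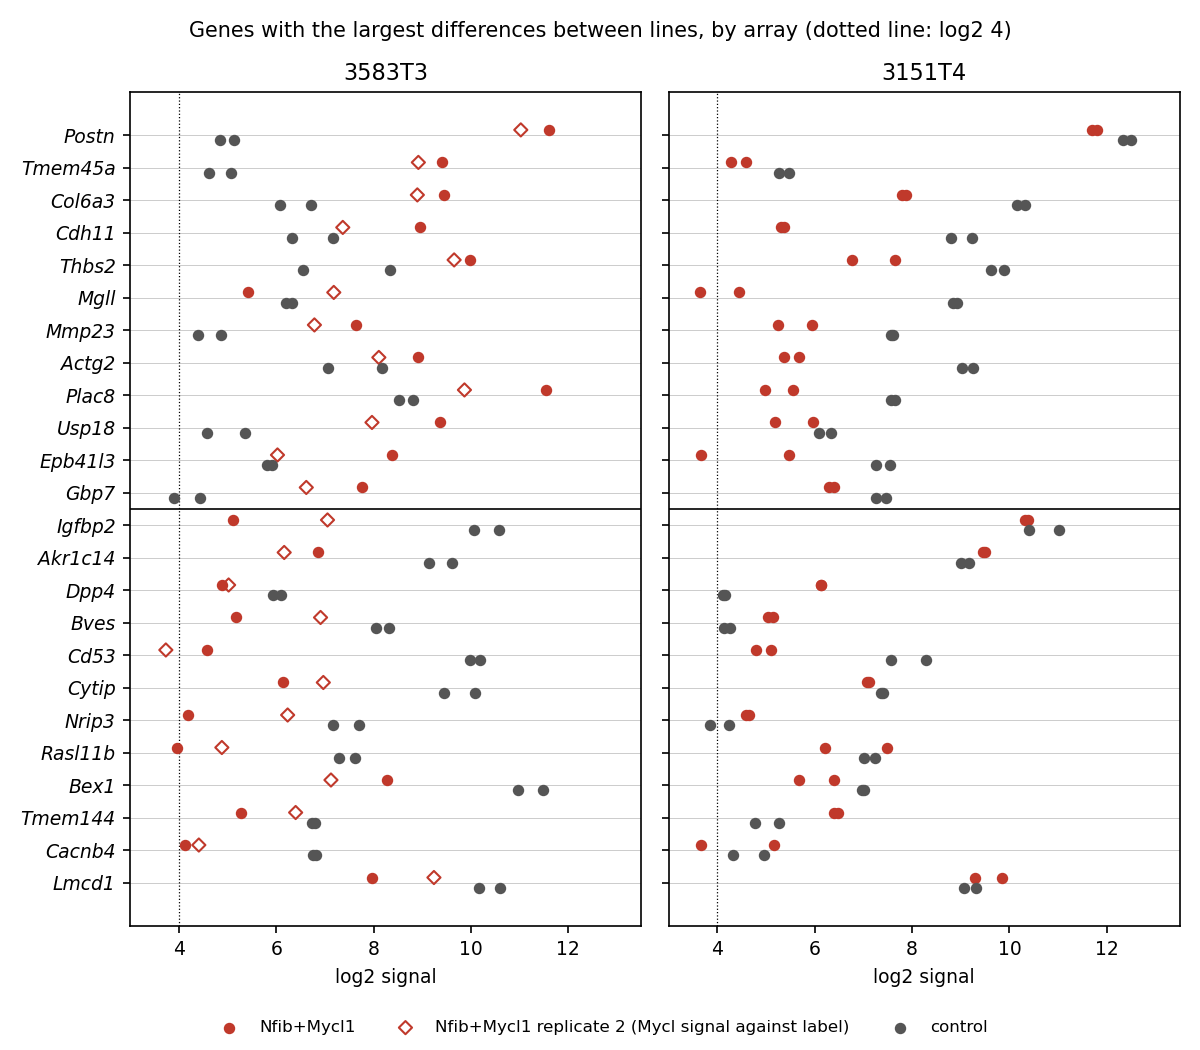
Log2 signal on each array of the 12 genes with the largest positive differences (above the solid line) and the 12 with the largest negative differences (under it) among genes with 4 means at log2 4 or above, with 3583T3 left and 3151T4 right. Red marks are Nfib+Mycl1 arrays, with the doubted 3583T3 replicate 2 as an open diamond, and grey marks are control arrays; Postn reads 11.61 and 11.03 against 5.14 and 4.84 in 3583T3.

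Among the 12 largest negative differences were falls in 3583T3 that 3151T4 did not share, while over all 51 negative genes 26 rose in 3151T4 alone and 22 fell in 3583T3 alone. Igfbp2 encodes a carrier protein of insulin-like growth factors. It read 5.11 and 7.05 in 3583T3 Nfib+Mycl1 cells, against 10.07 and 10.59 in 3583T3 control cells, and 10.38 and 10.33 in 3151T4 Nfib+Mycl1 cells, against 11.02 and 10.40 in 3151T4 control cells. It was 18.98-fold lower in 3583T3 and its 3151T4 change of -0.35 did not pass (difference -3.89 ± 0.80, adjusted p = 0.00835, and 0.0508 without 3151T4 control replicate 4). Akr1c14, an aldo-keto reductase of steroids, read 6.85 and 6.16 against 9.61 and 9.13 in 3583T3, and 9.50 and 9.45 against 9.01 and 9.16 in 3151T4 (difference -3.25 ± 0.54, adjusted p = 0.00212). Cytip, a binding partner of cytohesins, fell by 3.21 in 3583T3, Rasl11b, a small GTPase of the Ras superfamily, by 3.03, and Cacnb4, a calcium channel subunit, by 2.52, with 3151T4 changes between -0.29 and -0.23 that did not pass. Dpp4, a cell-surface dipeptidyl peptidase, read 4.89 and 5.02 against 5.93 and 6.10 in 3583T3, and 6.13 and 6.12 against 4.16 and 4.11 in 3151T4. It thus fell in one line and rose in the other (difference -3.05 ± 0.45, adjusted p = 0.000887). Tmem144 rose by 1.42 in 3151T4, and its 3583T3 change of -0.93 did not pass (adjusted p = 0.070), but was -1.49 and passed without the doubted arrays (adjusted p = 0.00176). Cd53, a tetraspanin of leukocytes, fell in both lines, by 5.92 in 3583T3 and by 2.97 in 3151T4. With Nfib alone in 3151T4, which shares the control arrays, Cd53 changed by 0.54, against -3.45 and -3.29 for the macrophage genes Mpeg1 and Clec4d. Cd74, also of the macrophage and leukocyte list, changed by -0.38 there.

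Others of these 12 were less stable. Bex1, a small adaptor protein of neural cells, fell by 3.52 in 3583T3, and Bves, Nrip3 and Lmcd1 fell by 2.15, 2.23 and 1.78. Bves missed the threshold without 3583T3 control replicate 2, 3151T4 control replicate 3 or 4, or 3151T4 Nfib+Mycl1 replicate 3 or 4 (adjusted p of 0.0528 to 0.0777). Bex1 missed it without 3583T3 control replicate 1, 3583T3 Nfib+Mycl1 replicate 2, 3151T4 control replicate 3 or 4, or 3151T4 Nfib+Mycl1 replicate 4 (0.0501 to 0.0778). Cacnb4 missed it without 3583T3 control replicate 1 or 2 or 3151T4 control replicate 4 (0.0534 to 0.0976). Nrip3 and Lmcd1 missed it without any one of the arrays other than 3583T3 Nfib+Mycl1 replicate 2 (0.0533 to 0.175). Without both doubted arrays all 24 genes of the 2 groups of 12 passed.

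Some genes were silent in 1 line and came on in the other. In 3583T3 the potassium channel subunit Kcne4 read 8.24 and 7.46 in Nfib+Mycl1 cells, against 3.17 and 3.50 in control cells, and stayed between 2.06 and 2.44 in 3151T4. Ang2, a ribonuclease of the angiogenin family, read 6.52 and 6.55 against 3.07 and 2.89 in 3583T3. The interferon-induced genes Oasl2 and Oas1a rose by 4.10 and 3.81 there. Oasl2 missed the threshold without 3151T4 Nfib+Mycl1 replicate 3 (adjusted p = 0.0615), and Oas1a without any one of the arrays other than 3583T3 control replicate 2 and 3583T3 Nfib+Mycl1 replicate 2 (0.0553 to 0.0821). In 3151T4 the 4 largest such rises were those of Tnnc2, Car9, Lhx8 and Epyc. Tnnc2, the troponin C of fast muscle, read 9.04 and 8.92 in 3151T4 Nfib+Mycl1 cells, against 3.30 and 3.13 in 3151T4 control cells. Car9, a carbonic anhydrase known for its induction by hypoxia, read 8.37 and 8.45 against 2.70 and 2.72. Lhx8, a LIM homeobox transcription factor of the developing forebrain, read 7.87 and 7.75 against 2.23 and 2.08. The rises in 3151T4 were 5.76, 5.69 and 5.66, and in 3583T3 no array of the 3 genes exceeded 3.61. Epyc, a small leucine-rich proteoglycan of cartilage, read 7.79 and 6.34 against 2.87 and 3.28 in 3151T4. With Nfib alone, a comparison that shares the control arrays, Tnnc2, Car9, Lhx8 and Epyc changed by 6.66, 8.13, 7.26 and 7.07 in 3151T4, and with Mycl1 alone by 0.41, -0.04, -0.06 and -0.17.

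More extracellular matrix genes rose than fell in 3583T3, and more fell than rose in 3151T4. Of 47 tested, 19 had a called positive difference and 1 (Lum) a negative one, against 4.31% and 1.66% of all genes, and 16 of the 19 lay above the floor. The count was 21 without the doubted arrays and 15 to 20 without any one array. Within the lines, 16 rose and 1 fell in 3583T3, against 7.13% and 6.53% of all genes. In 3151T4, 4 rose and 18 fell, against 14.6% and 15.2% of all genes. These shares, and 4.31% and 1.66% for the difference, are the background for every list below. The median change was 0.33 in 3583T3 and -0.21 in 3151T4, and the median difference 0.82, against -0.01 over all genes. Among fibrillar collagens Col3a1 read 11.53 and 10.13 against 8.18 and 8.25 in 3583T3, and 12.55 and 12.49 against 12.67 and 12.52 in 3151T4. It rose by 2.62 in 3583T3, the line that started low, with a 3151T4 change of -0.07 (difference 2.69 ± 0.51, adjusted p = 0.00526). Col1a2 rose by 1.66 in 3583T3 (difference 2.47) and Col5a1 rose by 1.09 there and fell by 0.50 in 3151T4. The differences of Col1a1 (0.13), Fn1 (0.12) and Sparc (0.05) did not pass (adjusted p of 0.889 or above). Col6a2, the partner chain of Col6a3, rose in both lines, by 2.95 in 3583T3 and 1.14 in 3151T4.

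Several basement membrane genes of the list, named after their values were seen, had larger falls in 3151T4. Nid1, which links laminin to collagen, read 11.77 and 11.93 against 12.16 and 12.47 in 3583T3, and 8.58 and 8.82 against 10.98 and 10.87 in 3151T4. It fell by 2.23 in 3151T4, Col18a1 by 1.84 and the laminin chain Lamb1 by 1.53, while none passed in 3583T3 (-0.47, -0.10 and -0.29). The differences of Col4a1 (0.80), Col4a2 (0.81), Lamc1 (0.74), Lama5 (0.37) and Hspg2 (0.02) did not pass (adjusted p of 0.0577 or above). The laminin chain Lama4 also had a positive difference (1.92, adjusted p = 0.00375), but through a rise of 1.88 in 3583T3 against -0.04 in 3151T4. Among enzymes and inhibitors, the crosslinking enzyme Loxl1 rose by 1.5 and Timp1, an inhibitor of metalloproteinases, by 0.85 in 3583T3, with values of 0.02 and 0.00 in 3151T4. Ccn5, a matricellular protein, read 11.04 and 10.01 against 5.95 and 6.69 in 3583T3, and 7.08 and 7.0 against 6.67 and 6.23 in 3151T4. With Nfib alone it changed by 4.10 in 3583T3 and 4.51 in 3151T4, and with Mycl1 alone by 2.39 and -2.81, in comparisons that share the control arrays. Prelp, a leucine-rich repeat protein of connective tissue chosen after its values were seen, had 4.30 and 0.36 with both vectors, 4.35 and 4.19 with Nfib alone, and 0.12 and -2.07 with Mycl1 alone. Mfap5 (difference 3.11), Nid2 (3.18) and Eln (1.83) were called but set aside at the floor, and Lum, at the floor in 3583T3, rose by 2.28 in 3151T4 and lost its call without the doubted arrays (adjusted p = 0.061) and without any one of 5 of the 8 arrays.

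**Figure D3:**
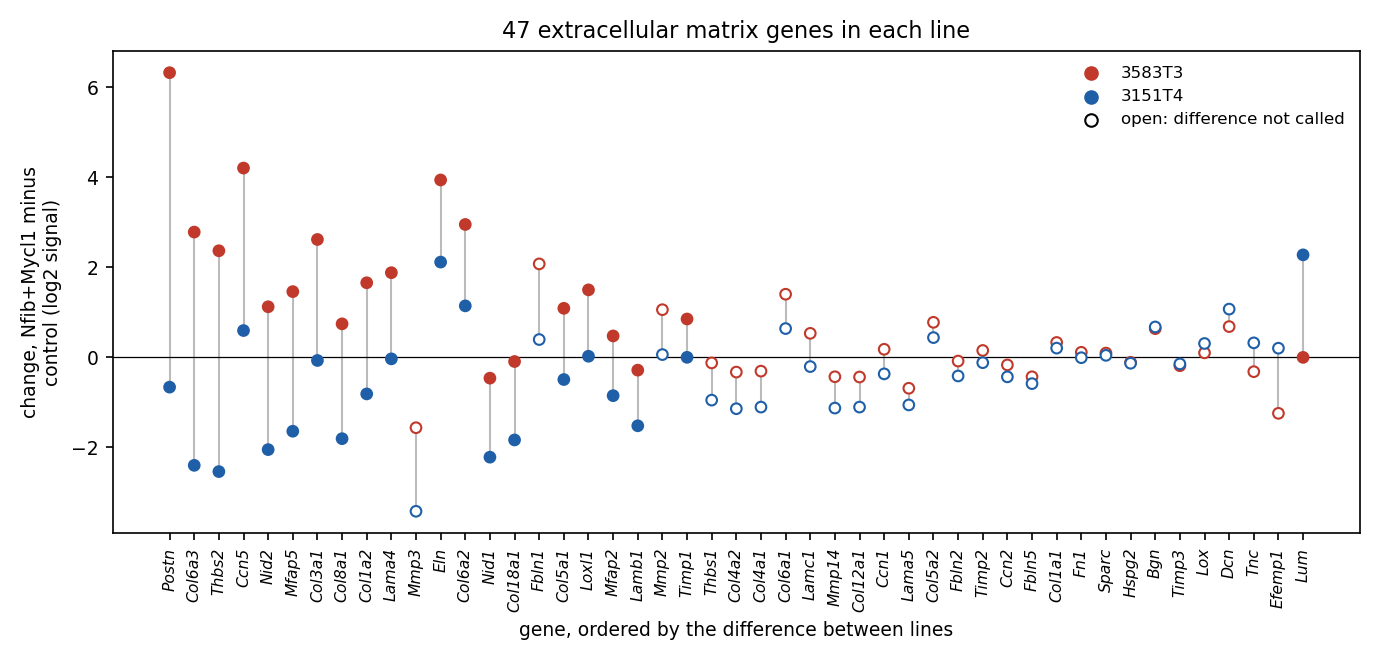
Change with both vectors (vertical axis, log2 signal) of 47 extracellular matrix genes, 3583T3 in red and 3151T4 in blue, ordered from the largest positive difference to the largest negative one; filled points passed the test of the difference. From Postn (6.33 and -0.67) to Lum (2.28 in 3151T4), most of the called genes lie higher in 3583T3.

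Of 18 fibroblast markers, 10 had a positive difference and 1 a negative one, and 13 and 1 without the doubted arrays. Of the 10, 6 also stand in the matrix list (Postn, Col6a3, Mfap5, Col3a1, Col1a2 and Loxl1), as does Lum, the negative one. The other 4 were Cd248, Pdgfra, Fap and Pdgfrb. In linear signal the 18 genes summed to 20200 to 23230 in 3583T3 Nfib+Mycl1 cells, against 7701 to 9788 in 3583T3 control cells, and to 22260 to 25520 in 3151T4 Nfib+Mycl1 cells, against 28380 to 29180 in 3151T4 control cells. Dpt and Lum averaged under log2 4 in both 3583T3 groups and Fap and Tcf21 in both 3151T4 groups. The part of fibroblast-like cells in the matrix differences was not tested. Among 21 mesenchymal transcription factors and markers 5 had a positive difference and 0 a negative one (8 without the doubted arrays, and 2 or 3 without any one of the other arrays except 3583T3 control replicate 2). Pdgfra, the receptor of platelet-derived growth factor on mesenchymal cells, read 9.86 and 9.81 against 7.46 and 8.92 in 3583T3, and 9.44 and 9.66 against 10.11 and 10.41 in 3151T4 (difference 2.35 ± 0.46, adjusted p = 0.00631). It rose by 1.64 in 3583T3 (limma, adjusted p = 0.00467), while its 3151T4 change of -0.71 did not pass (adjusted p = 0.115). Snai1, a repressor of epithelial genes, rose by 1.68 in 3583T3 and was under the floor level in 3151T4; its difference of 1.85 missed the threshold without 3583T3 control replicate 1, 3151T4 control replicate 3 or 3151T4 Nfib+Mycl1 replicate 3 (adjusted p of 0.0549 to 0.0665).

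Interferon-stimulated genes had the highest share of calls of the 26 lists after the fibroblast markers and the macrophage genes. Interferons act through surface receptors, and a complex that includes IRF9 then binds a response element in the promoters of antiviral genes. Of 34 tested, 17 had a positive difference (10 above the floor) and 0 a negative one, against 4.31% and 1.66% of all genes. The count was 22 without the doubted arrays, 10 without 3151T4 Nfib+Mycl1 replicate 3 and 12 to 18 without any other one of the 8 arrays. In 3583T3, 18 rose and 0 fell, against 7.13% and 6.53% of all genes. In 3151T4, 0 rose and 5 fell, against 14.6% and 15.2% of all genes, so the 5 falls lay near that share. Of the 34, 14 averaged under log2 4 in 3583T3 control cells and 9 in 3151T4 control cells, where falls are cut short. The median change was 1.26 in 3583T3 and -0.06 in 3151T4.

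Of the sensors and signalling genes, Irf9, the DNA-binding subunit of the interferon-activated complex, read 8.84 and 8.17 against 7.14 and 7.48 in 3583T3, and 6.17 and 6.41 against 7.47 and 7.77 in 3151T4. It rose by 1.19 in the first line and fell by 1.33 in the second. Irf7, which amplifies interferon production, rose by 2.19 in 3583T3, with a value of -0.48 in 3151T4, while the differences of Stat2 and Irf1 did not pass (0.54 and 0.65, adjusted p = 0.486 and 0.335). Among effectors, Ifit1, which binds viral RNA ends, read 8.73 and 7.58 against 4.11 and 4.30 in 3583T3, and 4.23 and 4.79 against 4.25 and 4.07 in 3151T4 (difference 3.60 ± 0.74, adjusted p = 0.00865). Its relative Ifit3 rose by 1.78 in 3583T3 and fell by 1.22 in 3151T4 (difference 3.00 ± 0.42, adjusted p = 0.000591). Trim30a, a tripartite motif protein, read 9.95 and 8.74 against 4.62 and 5.52 in 3583T3, and 5.66 and 5.50 against 5.16 and 5.22 in 3151T4 (difference 3.89 ± 0.76, adjusted p = 0.00622). For Irf9, Irf7, Ifit1, Ifit3 and Trim30a, replicate 1 of 3583T3 Nfib+Mycl1 exceeded the doubted replicate 2. Rtp4 (4.19) and the GTPase gene Gbp2 (3.01) were called and set aside at the floor. Antigen-presentation genes did not pass for the difference (H2-K1 0.53, H2-D1 0.71, B2m 0.01 and Tap1 1.39, adjusted p of 0.187 or above), although Tap1 passed without the doubted arrays (2.07, adjusted p = 0.0112). Several of these genes belong to families of similar sequence, and cross-hybridisation was not tested.

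The single vectors give context for these genes, in comparisons that share the control arrays. The median log2 signal of the 34 genes was 7.66 and 6.72 in 3583T3 Nfib+Mycl1 cells, 6.30 and 8.10 with Nfib, 4.02 and 3.66 with Mycl1, and 4.59 and 4.99 in 3583T3 control cells. In 3151T4 it was 5.41 and 5.54 in Nfib+Mycl1 cells, 7.41 and 7.78 with Nfib, 4.75 and 4.80 with Mycl1, and 5.80 and 5.76 in control cells. So both lines were high with Nfib alone and low with Mycl1 alone, and the combination was high in 3583T3 and near control in 3151T4. The library labelled 3583T3 Nfib replicate 2, which carried the Mycl signal, had the highest median of the 16 arrays. Usp18 changed by 3.90 and 3.60 with Nfib alone and by -1.13 and -1.24 with Mycl1 alone (3583T3 and 3151T4), and Ifit1 by 4.15 and 4.48, and -0.34 and -0.79. The 3583T3 Nfib means include the doubted replicate 2. Replicates 1 and 2 of 3583T3 Nfib read 7.83 and 9.90 for Usp18 and 7.29 and 9.41 for Ifit1. The 3583T3 control arrays read 4.57 and 5.35 for Usp18 and 4.11 and 4.30 for Ifit1.

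**Figure D4:**
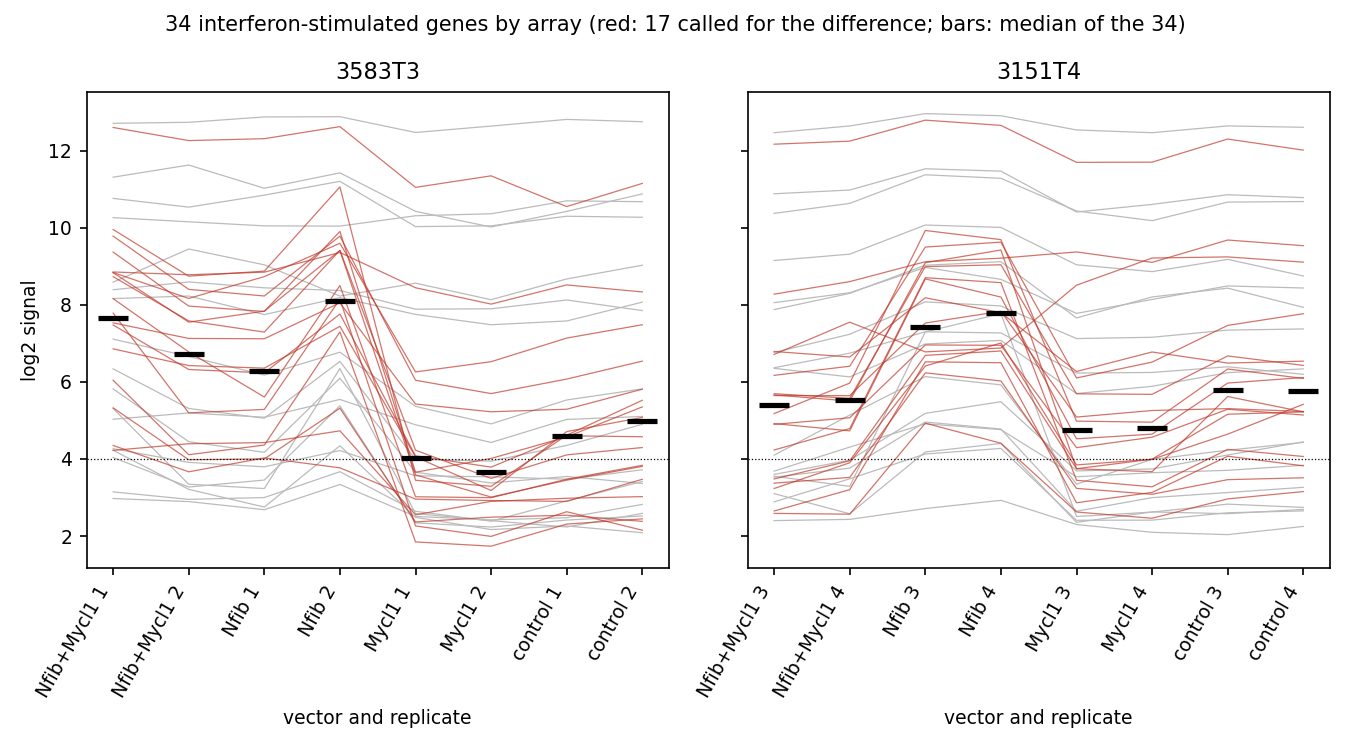
Log2 signal of 34 interferon-stimulated genes on all 16 arrays, 3583T3 left and 3151T4 right, by vector and replicate number; each thin line joins the values of a gene across arrays, in red for the 17 called for the difference, the black bars are the median of the 34, and the dotted line is log2 4. The medians of the Nfib+Mycl1 arrays are 7.66 and 6.72 in 3583T3 and 5.41 and 5.54 in 3151T4.

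The promoters of these genes carry letters like the interferon response element. RefSeq promoters (GRCm38.p6, 250 bases before to 50 after the start) were searched on both strands for GAAA, any 2 bases and GAAA again, a pattern within that element. It was found in 9 of the 14 called interferon genes with a promoter in the table (64.3%), in 4 of 14 that were not called (28.6%), in 9.7% of the 268 positive genes, in 8.04% of the 112 negative genes and in 3.78% of all 7123 tested genes with a promoter. Of all 32851 promoters, 3.44% held it. The windows below are those of the 4 called members with the smallest p whose match lies before the start. Each is read 5′ to 3′ on the gene's strand, and the capitals mark the match or its reverse complement.
Gbp2, chr3:142620579-142620638 (+): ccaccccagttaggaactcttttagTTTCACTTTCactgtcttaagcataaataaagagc
Ifit3, chr19:34583382-34583441 (+): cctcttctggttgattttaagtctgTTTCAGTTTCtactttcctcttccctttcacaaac
Igtp, chr11:58199497-58199555 (+): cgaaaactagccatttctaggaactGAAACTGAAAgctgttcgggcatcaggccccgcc
Trim30a, chr7:104465195-104465254 (-): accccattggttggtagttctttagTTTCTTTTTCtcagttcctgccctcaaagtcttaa
The E-box CACGTG, which does not overlap that pattern, was found in 6.72% of the positive genes, 13.4% of the negative genes, 12% of all tested genes and 0 of the 28 interferon genes with a promoter. The palindrome of nuclear factor I proteins, TTGGC, any 5 bases and GCCAA, was found in 3 of the 7123 promoters. A match describes the letters and not a site in use.

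Contractile and epithelial genes with a positive difference owed it mostly to falls in 3151T4, but as lists both had falls in each line. Of the smooth muscle genes 1 rose and 5 fell in 3583T3, and 0 rose and 5 fell in 3151T4 (medians -0.23 and -0.46). Of the epithelial genes 1 rose and 7 fell in 3583T3, and 1 rose and 9 fell in 3151T4 (medians -0.60 and -0.53). The median differences were 0.08 and 0.02. Of 16 smooth muscle genes 4 had a positive difference, all above the floor (Actg2, Myl9, Mylk and Tagln), and the count was 4 in each setting that left out an array. Tagln, an actin-binding protein, read 12.70 and 13.23 against 12.65 and 13.30 in 3583T3, and 8.69 and 8.95 against 11.38 and 10.91 in 3151T4. It was level in the first line and fell by 2.33 in the second (difference 2.32 ± 0.42, adjusted p = 0.00376). The light chain gene Myl9 fell by 3.11 in 3151T4, against -0.30 in 3583T3 (adjusted p = 0.60). Myh11, the smooth muscle myosin heavy chain, went the other way, falling by 5.20 in 3583T3, but it was under the floor level in 3151T4 and was set aside.

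Of 19 epithelial junction and keratin genes, 4 had a positive difference (Dsp, Krt7, Krt8, Krt18) and 2 a negative one (Dsg2 and Cldn4, both set aside). Dsp, the desmosomal plaque protein desmoplakin, read 9.14 and 9.44 against 10.54 and 10.16 in 3583T3, and 6.25 and 6.24 against 9.49 and 9.63 in 3151T4. It fell in both lines, by 1.07 and by 3.32 (difference 2.25 ± 0.25, adjusted p = 9.26e-05). Krt7, a simple epithelial keratin, fell by 2.33 in 3151T4, and Krt8 by 1.84 and its partner Krt18 by 1.12, while none passed in 3583T3 (0.19, -0.49 and 0.07). The count of 4 became 2 without 3583T3 control replicate 1, 3151T4 control replicate 3 or 3151T4 Nfib+Mycl1 replicate 4. Dsg2, a desmosomal cadherin, fell by 3.64 in 3583T3 and was near the floor in 3151T4. Of 25 integrin and adhesion genes 2 were positive and 1 negative, with 0 to 2 and 0 to 1 when single arrays were left out. Itga6, a laminin receptor chain, fell by 1.69 in 3151T4 against -0.20 in 3583T3 (difference 1.49, adjusted p = 0.0114, and 0.0647 or 0.0634 without 3583T3 control replicate 2 or 3151T4 Nfib+Mycl1 replicate 3). Itga7 and Itga4 were set aside.

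Of 23 Wnt pathway genes 5 had a positive difference and 0 a negative one, also without the doubted arrays, and 4 of the 5 belong to the secreted Sfrp and Dkk families, most of whose members inhibit Wnt signalling. Sfrp4, a secreted frizzled-related protein, read 5.56 and 6.54 against 6.22 and 6.43 in 3583T3, where the groups overlapped, and 6.37 and 6.33 against 9.35 and 9.85 in 3151T4 (difference 2.98 ± 0.44, adjusted p = 0.000983). Its 3583T3 change of -0.27 was -0.76 and passed without the doubted arrays (adjusted p = 0.0428). Dkk3, of the dickkopf family, rose by 2.35 in 3583T3 (3151T4 -0.44, difference 2.79). Sfrp1 read 7.79 and 7.33 against 2.97 and 3.49 in 3583T3, and 4.52 and 4.69 against 7.29 and 6.62 in 3151T4. It changed in opposite directions (difference 6.68 ± 0.37, adjusted p = 8.34e-08), but its 3583T3 control lay under log2 4 and the gene was set aside. Dkk2 (difference 6.33 ± 0.61) was set aside because it fell under log2 4 in 3151T4, to 3.54 and 4.08 in Nfib+Mycl1 cells, against 8.71 and 8.60 in control cells. Wnt5b was the ligand among the 5 and was set aside too.

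Of 14 genes of the insulin-like growth factor axis, 5 had a positive difference and 1, Igfbp2, a negative one. Over all genes these shares were 4.31% and 1.66%. The ligand gene Igf2 read 8.68 and 8.92 against 7.06 and 7.56 in 3583T3, and 10.38 and 10.51 against 10.88 and 10.44 in 3151T4 (difference 1.71 ± 0.29, adjusted p = 0.00269). Irs1, the adaptor behind the receptor, rose by 1.42 in 3583T3 (difference 1.78). The carrier proteins differed among themselves: Igfbp6 rose by 1.97 in 3583T3 and was under the floor level in 3151T4, Igfbp3 fell by 1.07 in 3151T4, and Igfbp5, at the floor in 3583T3 and set aside, fell by 1.99 in 3151T4. Of 33 genes of the TGF-beta and BMP pathway 4 were positive (7 positive and 4 negative without the doubted arrays, and 2 without any one of 6 arrays). Inhbb, a subunit of activin B, fell in both lines, by 1.12 in 3583T3 and 3.03 in 3151T4 (difference 1.92 ± 0.30, adjusted p = 0.0013), and its other probe set had a difference of -0.05. Bmp1, a procollagen protease, fell by 1.89 in 3151T4, but its difference of 1.60 missed the threshold without any one of the arrays other than 3583T3 Nfib+Mycl1 replicate 1 and 3151T4 control replicate 3 (adjusted p of 0.0681 to 0.146). Grem1 (2.65), a secreted BMP antagonist, was set aside. Of 13 retinoid genes 4 were positive, of which Rbp4 (1.33), the blood carrier of retinol, lay above the floor and Stra6, Crabp1 and Aldh1a3 (2.77, 3.49 and 2.43) were set aside. In the hedgehog list Gas1, a surface co-receptor of hedgehog ligands, was the 1 call of 10: it read 10.28 and 8.87 against 4.54 and 4.64 in 3583T3, and 11.08 and 11.20 against 9.81 and 10.05 in 3151T4. Gas1 in 3583T3 Nfib+Mycl1 cells (mean 9.57) ended near 3151T4 control cells (9.93) and under 3151T4 Nfib+Mycl1 cells (11.14; difference 3.77 ± 0.74, adjusted p = 0.00616). In the Notch list the ligand gene Jag1 was the 1 call of 16 (1.79, adjusted p = 0.025), lost without any one of 4 arrays.

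Of 15 neuroendocrine genes 3 were positive and 1, Bex1, negative, against 4.31% and 1.66% of all genes, with 1 positive without 3151T4 control replicate 3. Ddc, the decarboxylase of catecholamine synthesis, read 8.92 and 9.27 against 10.55 and 10.53 in 3151T4 and stayed under 1.8 in 3583T3, so its difference of 1.54 was set aside, as were those of Isl1 and Scg2. Of 27 axon guidance and neuronal adhesion genes 4 were positive and 1, the adhesion molecule Cadm1, negative. Cadm1 rose by 1.54 in 3151T4 (difference -2.05 ± 0.45, adjusted p = 0.013, and 0.0626 to 0.0740 without 3583T3 control replicate 1, 3151T4 Nfib+Mycl1 replicate 3 or 3151T4 control replicate 4). Ntn1, a guidance ligand, fell by 1.03 in 3151T4, and the netrin receptor Unc5c rose by 2.49 in 3583T3 and was set aside, as was Plxnd1. Of 28 homeobox genes Lhx8 alone was called, with 9 positive and 1 negative without the doubted arrays, against 5.71% and 3.03% of all genes. Of 9 lung epithelium markers Slpi, a secreted protease inhibitor, rose by 1.97 in 3583T3 and 4.98 in 3151T4 (difference -3.01, set aside because both controls lay under log2 4), and Aqp5 and Sftpc (1.16 and 1.56) lost their calls without most single arrays. Of 34 genes of amino acid and unfolded protein stress Nupr1 alone was called (0.86), and 0 without the doubted arrays. Of 28 hypoxia and glycolysis genes Car9 and Pfkfb3 were called; Pfkfb3, a regulator of glycolysis, differed by 1.06 (adjusted p = 0.0376), and its call was lost without any one of 6 arrays (0.0777 to 0.167).

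Of 47 MYC target and ribosome biogenesis genes, 12 rose in 3583T3, where 7.13% of all genes rose, and 35 in 3151T4, where 14.6% did, and 0 fell in either. The median change was 0.42 in 3583T3 and 0.88 in 3151T4. The difference was below 0 for all 47, with a median of -0.39 against -0.01 over all genes, but 1 passed the test, the ribonucleoprotein gene Nhp2 (-1.01, adjusted p = 0.034), and it missed without the doubted arrays (adjusted p = 0.056). Without those arrays 18 rose in 3583T3 and the median was 0.61. DNA replication genes had 0 calls of 36 and mitotic genes 0 of 42 (limma), with 9 and 12 at an unadjusted p under 0.05 and medians of 0.11 and 0.03 in 3583T3 and 0.53 and 0.38 in 3151T4. The cell cycle inhibitor gene Cdkn1a had the 1 call among 20 inhibitors and D cyclins (difference 3.12, adjusted p = 0.03), lost without any one of 6 arrays and kept without the doubted arrays, where Cdkn1a rose by 1.98 in 3583T3 (adjusted p = 0.000393).

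Macrophage and leukocyte genes fell in both lines, 24 of 24 in 3583T3 and 22 of 24 in 3151T4, where 6.53% and 15.2% of all genes fell. Of the 24, 13 had a negative difference and 0 a positive one, against 1.66% and 4.31% of all genes. Only 1 of the 13, Cd53, lay above the floor. Cd53 read 4.58 and 3.73 against 9.97 and 10.18 in 3583T3, and 5.10 and 4.80 against 8.28 and 7.57 in 3151T4. Cd74, the invariant chain of MHC class II, read 3.16 and 3.46 against 10.52 and 11.65 in 3583T3, and 6.0 and 6.30 against 9.04 and 8.86 in 3151T4. Mpeg1 and Clec4d fell by 6.17 and 7.17 in 3583T3 and by 3.43 and 2.89 in 3151T4. The levels before the fall were higher in 3583T3, and most ended at the floor in both lines. Of the 24 genes, 18 averaged under log2 4 in 3583T3 Nfib+Mycl1 cells against 0 in 3583T3 control cells, and 19 in 3151T4 Nfib+Mycl1 cells against 4 in 3151T4 control cells. The summed control signal of this list was 15650 to 24910 in 3583T3 and 7751 to 7803 in 3151T4. Among markers of further cell types, 0 of 6 endothelial genes were called (limma; 3 at an unadjusted p under 0.05, and 1 of each sign without the doubted arrays), Pecam1 and Cdh5 averaged under log2 3 in all 4 groups, and 1 of 8 glial genes was called (S100b, set aside), with Gfap under log2 3.

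**Figure D5:**
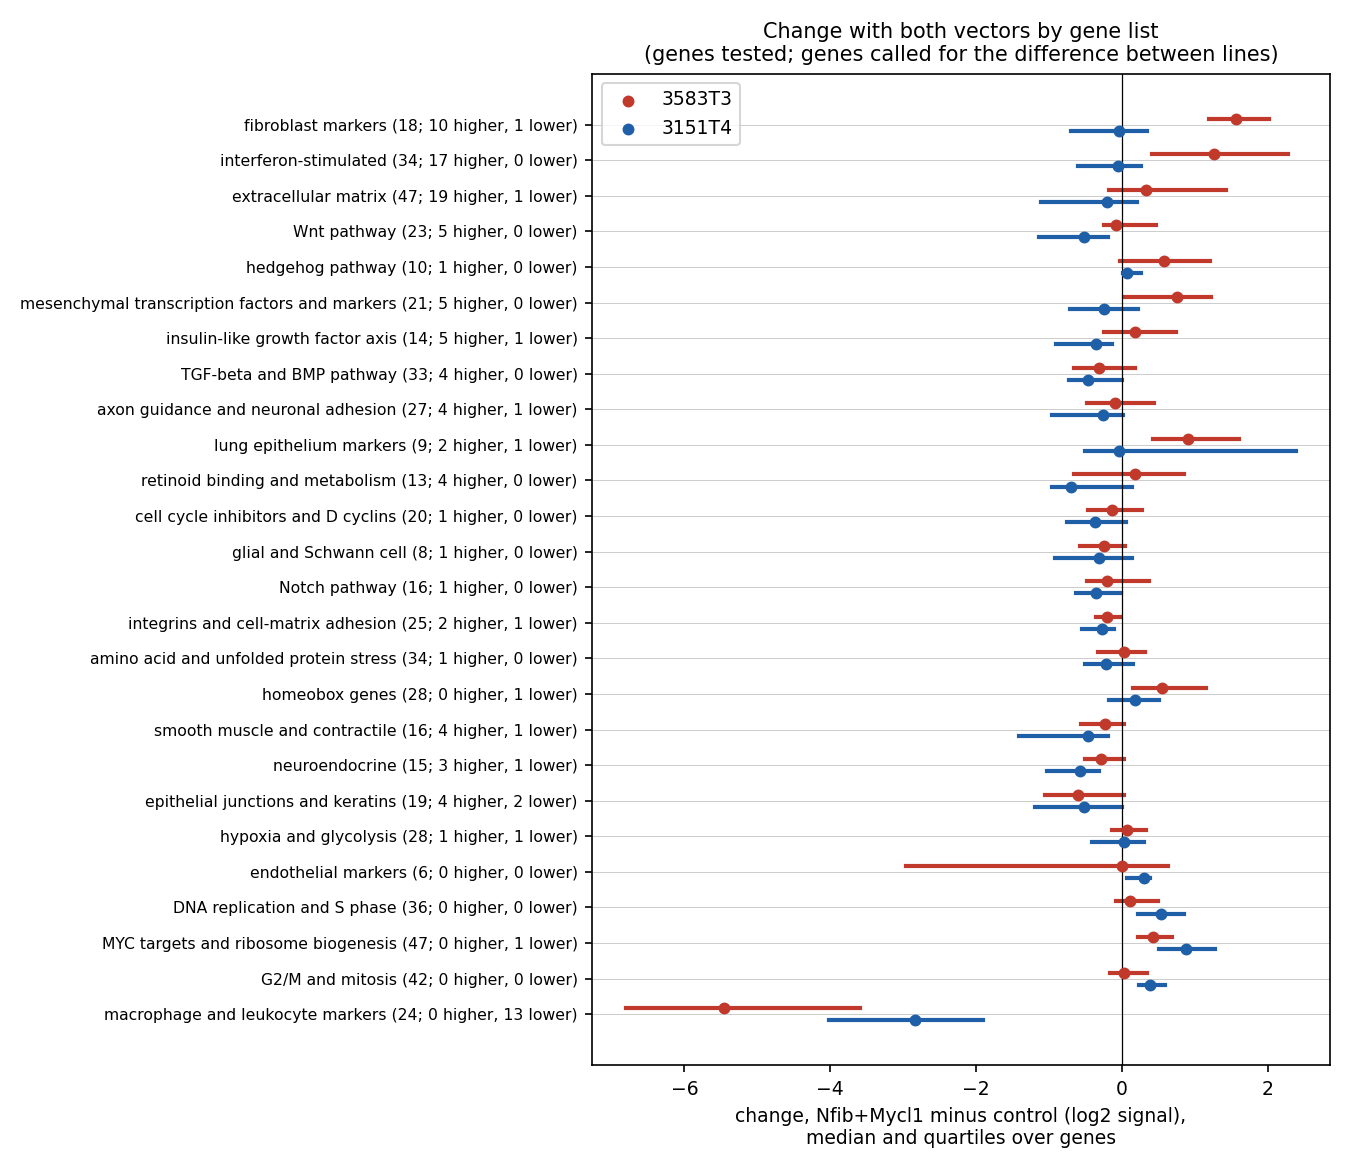
Median (points) and quartiles (bars) over genes of the change with both vectors (log2 signal), 3583T3 in red above 3151T4 in blue, for 26 gene lists ordered by the median difference; the labels give the genes tested and the genes called for the difference in each direction. Fibroblast and interferon lists lie at medians of 1.57 and 1.26 in 3583T3 and near 0 in 3151T4, and macrophage genes at -5.46 and -2.84.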

How the data were processed

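The deposited table holds the log2 signal of 22690 probe sets on 16 arrays, made by the authors. The submitters' processing notes list GCRMA (2.20.0) and R (2.11.0). That tool corrects background by probe sequence and normalizes by quantiles, which leaves a floor near log2 2 where falls are cut short. The log2 scale was read from the value range. Groups came from sample titles and sources. No column was left out (0). The platform annotation gave 20380 probe sets 1 gene symbol, 691 several and 1555 none, besides 64 control probe sets; the gene numbers of 8765 of the 8777 tested genes matched the RefSeq table, with 0 changed symbols.

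For each gene the brightest probe set above log2 4 on at least 2 arrays was used, which left 8777 of 12393 genes. Limma 3.58.1 in R 4.3.3 (lmFit, eBayes with a mean-variance trend) fitted 8 means over 16 arrays, with 8 residual degrees of freedom, and the difference of the lines' changes was tested two-sided at a Benjamini-Hochberg adjusted p under 0.05. The number of arrays limits the precision. The code was tested on simulated data.

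Named genes were every Nfib, Mycl, Mycn and Myc probe set; the 12 most positive and 12 most negative called differences with 4 means at log2 4 or above; the 4 largest with opposite changes; per line, the 4 largest rises from under log2 4; and up to 3 members, by p, of each of the 26 lists with at least 2 calls. Further list members that complete a count were named after their values were seen. Of the 70 genes with a named difference, 26 had another tested probe set, 33 in all. Of these 33, 32 had the same sign as the main one, and 25 of them were also called. Those not called belonged to Aldh1a3, Cadm1, Gbp7, Igf2, Itga6, Rtp4, Tmem144 and, with the opposite sign, Inhbb. Members, lists and rules were chosen with earlier results of these data known. Alternatives were other filters, every probe set, a second quantile normalization, median centring, no trend, array weights, the 8 arrays alone, a replicate block, another floor level and leaving out arrays.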

Additional observations from a re-analysis of the deposited data

Results flagged for a closer look

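Every value here is a difference that passed its own test (limma, adjusted p under 0.05), that is, the 3583T3 change minus the 3151T4 change on the log2 scale, and it is listed because the lines differed under the same contrast. Among genes with 4 means at log2 4 or above, the positive differences were those of Postn (7.0), Tmem45a (5.25), Col6a3 (5.19), Cdh11 (5.10), Thbs2 (4.91), Mgll (4.88), Mmp23 (4.57), Actg2 (4.51), Plac8 (4.39), Usp18 (4.34), Epb41l3 (4.17) and Gbp7 (4.04). Smaller ones from the gene lists were those of Ifit3 (3.00), Sfrp4 (2.98), Krt7 (2.53), Pdgfra (2.35), Tagln (2.32), Dsp (2.25), Inhbb (1.92), Igf2 (1.71), Bmp1 (1.60), Itga6 (1.49), Aqp5 (1.16) and Pfkfb3 (1.06).

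Negative differences above the floor were those of Igfbp2 (-3.89), Akr1c14 (-3.25), Dpp4 (-3.05), Bves (-3.04), Cd53 (-2.95), Cytip (-2.92), Nrip3 (-2.80), Rasl11b (-2.76), Bex1 (-2.57), Tmem144 (-2.35), Cacnb4 (-2.29), Lmcd1 (-2.16) and Cadm1 (-2.05). Genes under log2 4 in 1 line that rose in 3583T3 were Oasl2 (5.12), Kcne4 (4.21), Oas1a (3.85), Ang2 (3.65), Igfbp6 (2.33) and Snai1 (1.85), and those that rose in 3151T4 were Car9 (-6.12), Tnnc2 (-5.71), Lhx8 (-5.03) and Epyc (-4.08).

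The remaining differences were set aside because a group mean at the floor enters them. They were positive for Sfrp1 (6.68), Dkk2 (6.33), Rtp4 (4.19), Crabp1 (3.49), Mfap5 (3.11), Gbp2 (3.01), Stra6 (2.77), Grem1 (2.65), Unc5c (2.58), Aldh1a3 (2.43), Igfbp5 (2.19), Plxnd1 (2.1), Isl1 (1.70), Sftpc (1.56), Ddc (1.54) and Itga7 (1.13). They were negative for Myh11 (-5.09), Cd74 (-4.97), Dsg2 (-4.47), Clec4d (-4.28), Slpi (-3.01), Mpeg1 (-2.75) and Itga4 (-1.37).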

How the results depend on the processing

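Single arrays moved the counts more than any change of normalization or filter. The number of genes that differed between lines ran from 321 to 549 when each of the 8 arrays was left out, the number above the floor from 136 to 307, the number changed in 3583T3 from 423 to 1416 and in 3151T4 from 1028 to 2726. Without the 2 arrays whose Mycl signal goes against the label, 1892 genes changed in 3583T3, and with every probe set 4093 probe sets changed in 3151T4, where more features were tested. The other counts over genes stayed within 1.5 times under the remaining alternatives (57 of 73 values in all). A floor level of log2 3 left 360 genes above the floor. The replicate numbers gave no evidence of pairing (correlations of same-numbered deviations from -0.74 to 0.31). The value of -0.74 was that of 3583T3 Nfib with 3583T3 Nfib+Mycl1, the groups of the 2 doubted arrays. The next lowest was -0.40, for 3583T3 control with 3583T3 Mycl1. What the -0.74 means for the labels of the doubted arrays was not tested. With a replicate block 429 genes differed between lines, 202 of them above the floor, 849 changed in 3583T3 and 2182 in 3151T4. Of the 70 named differences, 0 reversed, 51 passed in all 16 settings and 19 missed the threshold in at least 1 (highest adjusted p 0.175). The 70 were picked because they passed with all arrays, and the settings refit the same values. The 0 reversals are therefore no independent support. The cause of the array dependence was not tested. With 2 arrays a group, leaving one out assumes that the lone array varies like the other groups. Signal under about log2 4 gives only bounds.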

Other observations

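Several of the largest differences were set aside at the signal floor and are given here as values only. Cd34, a surface glycoprotein of stem, endothelial and stromal cells, had a change of 4.45 in 3583T3 and -2.32 in 3151T4. Ptx3, a soluble pattern recognition protein, changed by 5.99 in 3583T3 and by -0.17 in 3151T4, and Sod3, the secreted superoxide dismutase, by 4.91 and -0.90. F13a1, the A subunit of coagulation factor XIII, Rgs5, a pericyte marker, and Hsd11b1, which regenerates active glucocorticoids, had changes of 0.05, 0.24 and 0.79 in 3583T3, and fell by 6.26, 5.59 and 4.44 in 3151T4. Bex4, Ugt2b34 and the arginase gene Arg1 fell by 5.50, 6.10 and 6.21 in 3583T3, with 3151T4 values of 1.34, 0.30 and -1.90.

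Opposite changes above the floor also took in genes outside the lists. Gpx7, a peroxidase of the endoplasmic reticulum, had changes of 1.57 in 3583T3 and -2.05 in 3151T4. Serpinf1, which encodes the anti-angiogenic factor PEDF, had 1.88 and -1.22, Cd248, the stromal glycoprotein endosialin, 2.05 and -0.86, and Procr, the endothelial protein C receptor, 0.53 and -1.23. Enzymes of small-molecule metabolism among them were Cda, a cytidine deaminase (1.20 and -2.03), Abat, which breaks down GABA (0.93 and -1.84), and Acss2, an acetyl-CoA synthetase (1.06 and -0.999).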
